A study of Mus musculus with 4 samples.

Results

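*Fas*, its ligand, the initiator caspases and the inhibitors of apoptosis were followed as 8 named genes, *Fasl*, *Fas*, *Casp8*, *Casp9*, *Cflar*, *Xiap*, *Birc2* and *Birc3*, which were taken by symbol from a fixed list and found by Entrez identifier among the 19339 genes of each library. The libraries hold RNA of TCRβ+CD8αα+ intraepithelial lymphocytes (IELs) from the small intestine of C57BL/6 mice, sorted as CD45+CD4−TCRβ+CD8α+CD8β− cells, and each was made from 3 mice pooled. The 2 control libraries came from Kdm6bfl/fl mice and the 2 libraries labelled Kdm6b-deficient from Kdm6bfl/fl-CD4Cre mice, so both groups carry the floxed alleles and the Cre, driven by CD4 regulatory sequence, is the difference; it acts in the T cell lineage, and the age of the mice is not given in the sources used here. Both groups carry the replicate numbers 1 and 3. *Kdm6b* encodes a demethylase of the repressive histone mark H3K27Me3, and the comparison asks how its loss bears on the IEL transcriptome. Levels are in FPKM, a unit that corrects fragment numbers for the length of the transcript and the size of the library, so that genes can be compared with each other.

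*Fas* is a death receptor of the cell surface. Once *Fas* ligand binds, its cytoplasmic death domain gathers the adaptor FADD and the precursor of the caspase that *Casp8* encodes, which cut themselves into an active initiator enzyme that opens the executioner caspases. *Cflar* encodes cFLIP, a relative of that caspase that enters the same complex and holds it in check. *Casp9* encodes the initiator of the mitochondrial route, which is activated on the *Apaf1* scaffold after cytochrome c leaves mitochondria. *Xiap* binds and blocks active caspases, whereas the proteins of *Birc2* and *Birc3* (cIAP1 and cIAP2) are ubiquitin ligases at TNF receptor complexes that favour survival signalling over the assembly of a death complex. Cytotoxic lymphocytes of the gut, IELs included, are known to carry *Fas* ligand as a weapon beside their granules, so the same pathway can act on their targets and on themselves.

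All 8 genes were detected in all 4 libraries and passed the filter of at least 1 FPKM in at least 2 libraries that 12009 genes passed. By name they were *Fasl* (Entrez 14103, chromosome 1, 161780691 to 161788495 of GRCm38), *Fas* (14102, chromosome 19, 34290647 to 34327775), *Casp8* (12370, chromosome 1, 58795233 to 58847503), *Cflar* (12633, chromosome 1, 58711311 to 58758884), *Casp9* (12371, chromosome 4, 141793612 to 141815978), *Xiap* (11798, chromosome X, 42059613 to 42109664), *Birc2* (11797, chromosome 9, 7818226 to 7837131) and *Birc3* (11796, chromosome 9, 7847468 to 7873205). *Birc2* and *Birc3* lie side by side and are related in sequence, so reads may have been divided between them. RSEM divides reads that match both, and its division was not checked here.

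Before the values, 3 promoters are shown, those of the ligand, where the study placed an amplicon for H3K27Me3 chromatin immunoprecipitation, and of *Birc2* and *Birc3*, neighbours related in sequence. Each is the 250 bases before the start of a transcript annotated in RefSeq GRCm38.p6, on the minus strand and written 5′ to 3′. The windows of *Birc2* and *Birc3* partly overlap the gene spans given above, so they precede the start of a transcript and not the outer end of the gene, and *Birc2* has another start whose window is not printed. In the *Fasl* promoter (chr1:161788496-161788745) capitals mark the 18 bases matched by the reverse primer of that amplicon, 237 to 220 bases before the start. The forward primer had no match in the promoter windows. In the *Birc2* promoter (chr9:7837058-7837307) and the *Birc3* promoter (chr9:7873171-7873420) capitals mark CG dinucleotides, of which the first held 31 and the second 6.
Fasl: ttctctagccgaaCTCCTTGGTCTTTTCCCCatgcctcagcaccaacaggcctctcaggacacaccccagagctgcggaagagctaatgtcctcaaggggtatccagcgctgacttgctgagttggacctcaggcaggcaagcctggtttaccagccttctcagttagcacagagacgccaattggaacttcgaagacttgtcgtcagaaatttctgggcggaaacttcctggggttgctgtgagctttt
Birc2: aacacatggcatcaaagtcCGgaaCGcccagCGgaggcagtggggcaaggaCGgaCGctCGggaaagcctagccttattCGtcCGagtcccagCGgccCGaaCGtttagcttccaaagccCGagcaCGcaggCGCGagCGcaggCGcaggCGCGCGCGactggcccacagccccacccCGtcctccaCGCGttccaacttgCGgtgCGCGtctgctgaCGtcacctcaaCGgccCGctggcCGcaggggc
Birc3: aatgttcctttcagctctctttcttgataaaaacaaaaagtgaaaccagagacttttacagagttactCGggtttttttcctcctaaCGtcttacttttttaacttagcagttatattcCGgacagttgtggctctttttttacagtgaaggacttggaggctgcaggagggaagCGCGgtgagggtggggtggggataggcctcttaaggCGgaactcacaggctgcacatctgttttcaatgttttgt
The 8 genes had 11 promoter windows of 300 bases (250 before and 50 after a start). Those of *Casp8* and *Xiap* lie wholly inside the gene spans given above, so they do not precede the outer end of the gene. None of the 11 windows held the consensus of the κB motif on either strand, against 4.51% of 32851 windows, which says only that this consensus was not in these windows. CG dinucleotides numbered 34 and 21 in the windows of *Birc2*, 28 in that of *Casp9*, 14 in that of *Fas*, 12 in that of *Cflar*, 7 in that of *Birc3*, 7 in that of *Fasl* and 5 in that of *Casp8*, with 20, 5 and 2 in those of *Xiap*. The median over all windows was 7. Methylation and histone marks at these windows were not analysed here.

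In the control libraries the ligand stood far above its receptor. *Fasl* had the highest mean level of the 8 genes, with 134 FPKM in control replicate 1 and 75.4 FPKM in control replicate 3, above 91.3% of the tested genes, although *Birc3* was at 75.6 FPKM in the latter. *Fas* had 7.4 and 4.27 FPKM in the same order, above 30.7% of the tested genes. The ratio of ligand to receptor within a library was therefore 18.1 in control replicate 1 and 17.7 in control replicate 3, almost the same although both genes were higher in the first of these libraries. In the libraries labelled Kdm6b-deficient the ratio was 21.4 in replicate 1 and 9.89 in replicate 3, on either side of the control ratios (log2 difference −0.30, two-sided exact permutation p = 1.0, n = 2 per group, where 0.333 is the smallest p that can be had).

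The next levels in the control libraries belonged to genes that restrain or start the death complex. The order by geometric mean was *Fasl* at 100 FPKM, *Birc3* at 87.3 FPKM, *Casp8* at 69.7 FPKM, *Birc2* at 53.6 FPKM, *Cflar* at 18.1 FPKM, *Xiap* at 6.16 FPKM, *Fas* at 5.62 FPKM and *Casp9* at 5.02 FPKM. The ranges of the 2 control libraries overlapped between *Fasl* and *Birc3*, between *Xiap* and *Fas* and between *Fas* and *Casp9*, so the order within those pairs was not resolved. *Casp8*, the initiator of the receptor route, was thus well above *Casp9*, the initiator of the mitochondrial route. Among the inhibitors *Birc3* and *Birc2* were well above *Xiap*. In the libraries labelled Kdm6b-deficient the first 5 places were the same, with *Fasl* at 81.7 FPKM, *Birc3* at 77.7 FPKM, *Casp8* at 68.6 FPKM, *Birc2* at 39.1 FPKM and *Cflar* at 19.7 FPKM. The last 3 were *Casp9* at 6.14 FPKM, *Fas* at 5.61 FPKM and *Xiap* at 4.52 FPKM, so *Xiap* stood sixth in the control libraries and last in the others. There the ranges overlapped between *Fasl* and *Birc3*, between *Birc3* and *Casp8* and between *Casp9* and *Fas*.

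**Figure D1:**
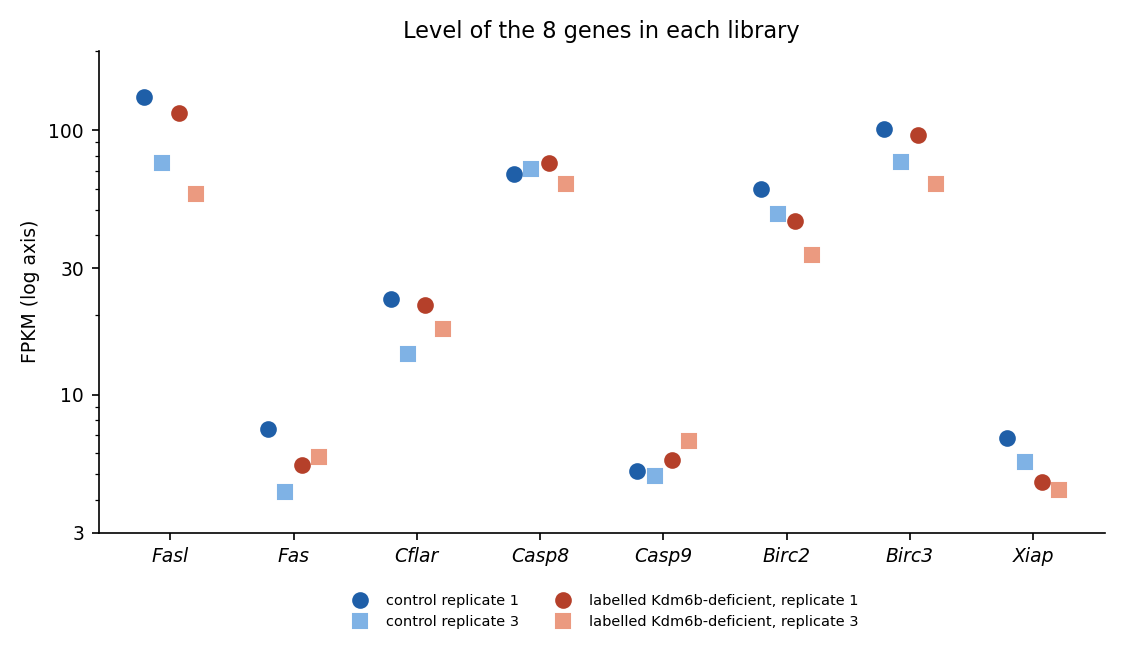
FPKM (log axis) of each of the 8 genes in the 4 libraries, 1 point per library, with circles for replicate 1 and squares for replicate 3. *Fasl*, *Birc3*, *Casp8* and *Birc2* sit between 33.6 and 134 FPKM, and *Fas*, *Casp9* and *Xiap* between 4.27 and 7.4 FPKM; for *Xiap* and *Birc2* both libraries labelled Kdm6b-deficient lie below both control libraries, and for *Casp9* above.

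Between genotypes no member of the pathway core passed the test. With limma on log2(FPKM + 1), 0 of the 8 genes had an adjusted p under 0.05 and 0 of 8 an unadjusted p under 0.05. Over all 12009 genes this limma fit, which had no block for the replicate number, called 0 as well (0.0%), with a smallest adjusted p of 0.193. In it 642 genes (5.35%) had an unadjusted p under 0.05. The 2 libraries of a group lay wholly on 1 side of the other group for 3 of the 8 genes (37.5%), against 37.0% of all tested genes, so separate groups were as common here as elsewhere. Of these 3, *Xiap* and *Birc2* were lower in the libraries labelled Kdm6b-deficient (18.6% of all tested genes were lower in this way) and *Casp9* was higher (18.4%). The median log2 fold change of the 8 genes was −0.09, beside 0.001 for all tested genes, with 2 positive and 6 negative values. In bulk RNA, fewer cells of a type and less RNA per cell cannot be told apart, and on this log2(FPKM + 1) scale the differences of low genes are understated.

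The lowest fold changes of the 8 belonged to a pair of IAP genes, *Birc2* and *Xiap*. *Birc2*, which encodes cIAP1, had 59.7 and 48.2 FPKM in control replicates 1 and 3 (53.9 ± 8.12, SD, n = 2) and 45.4 and 33.6 FPKM in the libraries with the Kdm6b-deficient label (39.5 ± 8.28). The groups did not overlap, but the gap between 48.2 and 45.4 FPKM was smaller than the spread within either group. Its log2 fold change was −0.45 (SE 0.23, 95% interval −1.02 to 0.12, limma adjusted p = 0.755, unadjusted p = 0.104). *Xiap*, the inhibitor that binds caspases directly, had 6.83 and 5.55 FPKM in the control libraries (6.19 ± 0.905) and 4.68 and 4.37 FPKM in the others (4.53 ± 0.219). Here too both libraries of a group stood apart from the other group, at a level that corresponds to about 350 to 660 fragments per library. The log2 fold change was −0.37 (SE 0.29, 95% interval −1.09 to 0.35, limma adjusted p = 0.777). *Birc3*, which encodes cIAP2, had 101 and 75.6 FPKM in the control libraries (88.2 ± 17.9) and 96.1 and 62.8 FPKM in those with the Kdm6b-deficient label (79.5 ± 23.5). Replicate 1 labelled Kdm6b-deficient was above control replicate 3, so the groups overlapped. Its log2 fold change of −0.17 (SE 0.27, 95% interval −0.85 to 0.51) did not pass the test (limma adjusted p = 0.886), and it was 0.14 without replicate 3 labelled Kdm6b-deficient and 0.04 without control replicate 1.

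The death receptor and its ligand differed more between replicates of a group, for *Fas* those of the control group, than between the group means. *Fasl* had 116 and 57.4 FPKM in the libraries with the Kdm6b-deficient label (86.8 ± 41.6, n = 2), against the 134 and 75.4 FPKM of the control libraries (105 ± 41.3). In each group replicate 1 was the high library and replicate 3 the low one, and across the 4 libraries the gene spanned 1.21 on the log2 scale, the widest range of the 8. Its log2 fold change was −0.29 (SE 0.42, 95% interval −1.34 to 0.76, limma adjusted p = 0.867). It was 0.21 without replicate 3 labelled Kdm6b-deficient and 0.12 without control replicate 1, so the sign rested on single libraries. For *Fas*, the receptor, the libraries labelled Kdm6b-deficient had 5.43 and 5.8 FPKM (5.62 ± 0.262), between the 7.4 and 4.27 FPKM of the control libraries (5.83 ± 2.21). The log2 fold change was −0.01 (SE 0.34, 95% interval −0.86 to 0.84, limma adjusted p = 0.995), at a level of about 80 to 140 fragments per library, the fewest among the 8 genes.

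The initiator caspases and cFLIP had log2 fold changes between −0.02 and 0.25. *Casp8* had 68.3 and 71.1 FPKM in the control libraries (69.7 ± 1.93, n = 2) and 75.3 and 62.4 FPKM in those with the Kdm6b-deficient label (68.9 ± 9.13). It was the steadiest of the 8 genes, with a range of 0.27 on the log2 scale over the 4 libraries, and its log2 fold change of −0.02 had the narrowest interval (SE 0.18, 95% interval −0.47 to 0.43, limma adjusted p = 0.982). *Cflar* had 23.0 and 14.2 FPKM in the control libraries (18.6 ± 6.21) and 21.8 and 17.7 FPKM in the others (19.8 ± 2.91). The groups overlapped, with both extremes in the control group (log2 fold change 0.11, SE 0.29, 95% interval −0.63 to 0.85, limma adjusted p = 0.933). As the protein of *Cflar* competes with that of *Casp8* in the receptor complex, their ratio within a library was taken too. It was 0.337 and 0.2 in the control libraries and 0.29 and 0.284 in those labelled Kdm6b-deficient, which lay between them (log2 difference 0.14, two-sided exact permutation p = 1.0, n = 2 per group, smallest possible p 0.333). *Casp9* was the gene with separate groups in the upward direction, with 5.14 and 4.9 FPKM in the control libraries (5.02 ± 0.17) against 5.66 and 6.65 FPKM (6.16 ± 0.7). Its log2 fold change was 0.25 (SE 0.28, 95% interval −0.45 to 0.95, limma adjusted p = 0.839). The gap between groups, from 5.14 to 5.66 FPKM, was smaller than the spread between the libraries labelled Kdm6b-deficient. This level corresponds to about 260 to 300 fragments per library.

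**Figure D2:**
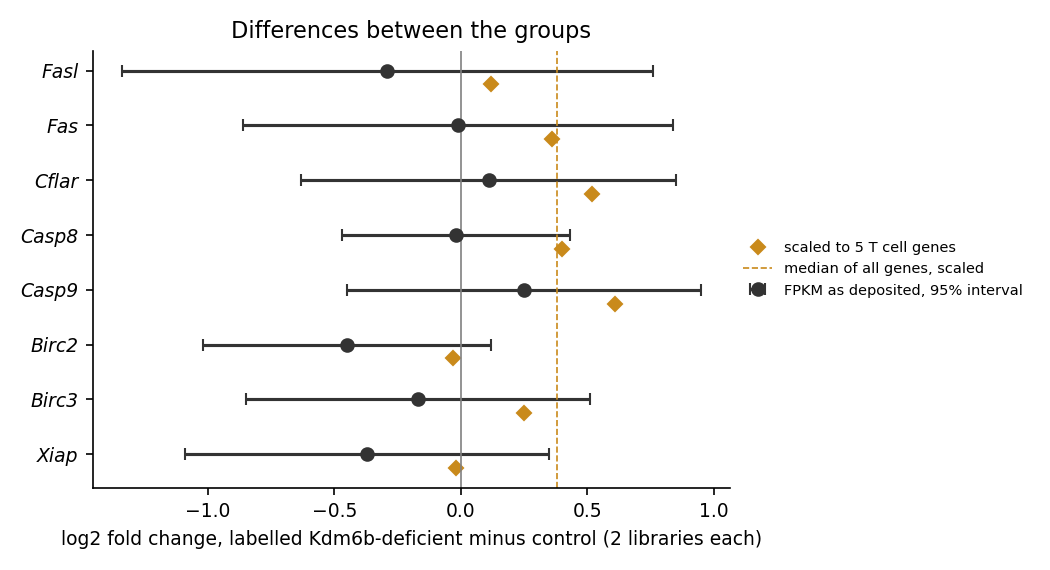
Log2 fold change, libraries labelled Kdm6b-deficient minus control (2 libraries each). Circles give FPKM as deposited with the limma 95% interval, and all 8 intervals include 0. Diamonds give the same after scaling to 5 T cell genes, where the dashed line marks the median of all genes at 0.38; *Birc2* and *Xiap* lie near 0 and the other 6 genes between 0.12 and 0.61.

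The libraries differed in other ways that touch these values. *Kdm6b* itself had 16.5 and 16.0 FPKM in the control libraries and 18.2 and 11.1 FPKM in the libraries with the Kdm6b-deficient label replicates 1 and 3 (log2 fold change −0.18, SE 0.29, limma adjusted p = 0.886), so replicate 1 did not show a lower transcript level; where the deleted part of the gene lies cannot be seen in a value for the whole gene. Relative sequencing depth, from the steps between low FPKM values, was 0.826 to 1 with control replicate 1 at 1, and fragment numbers per gene are estimates from the same steps. The T cell and IEL markers (8 of 8 detected) summed to 4452 and 3577 FPKM in the control libraries and to 3489 and 2598 FPKM in the others. Of these 8 markers 4 were lower and 0 higher without overlap. Of the markers that the gate should remove, *Cd4* had 30.6 and 10.1 FPKM in the control libraries and 30.5 and 3.17 FPKM in the others, and *Cd8b1* had between 0 and 1.64 FPKM. Epithelial markers were present in all libraries, lowest where the T cell sum was highest and highest where it was lowest. The 20 of them summed to 1458 and 4602 FPKM in control replicates 1 and 3 and to 4274 and 11301 FPKM in the libraries with the Kdm6b-deficient label replicates 1 and 3, and all 20 were lowest in control replicate 1 and highest in replicate 3 labelled Kdm6b-deficient. B cell markers summed to 31.4 to 38.6 FPKM and natural killer cell markers to 17.3 to 29.7 FPKM. The 5 myeloid markers summed to 442 and 305 FPKM in the control libraries and to 498 and 706 FPKM in the others, without overlap. Of them 3 were higher and 0 lower without overlap, where 18.4% and 18.6% of all tested genes were.

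Several of the 8 genes followed the order of the epithelial sum. From the lowest to the highest sum (control replicate 1, replicate 1 labelled Kdm6b-deficient, control replicate 3, replicate 3 labelled Kdm6b-deficient), *Fasl* went from 134 through 116 and 75.4 to 57.4 FPKM. *Birc3* went from 101 through 96.1 and 75.6 to 62.8 FPKM, without a break in the order. *Birc2* and *Xiap* were likewise highest in the first and lowest in the last of these libraries, so that 4 of the 8 genes were, against 18.1% of all tested genes. *Casp9* was highest in the last, where T cell markers were lowest, and *Casp8*, *Fas* and *Cflar* followed no such order. The part of epithelial RNA in these values was not tested.

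**Figure D3:**
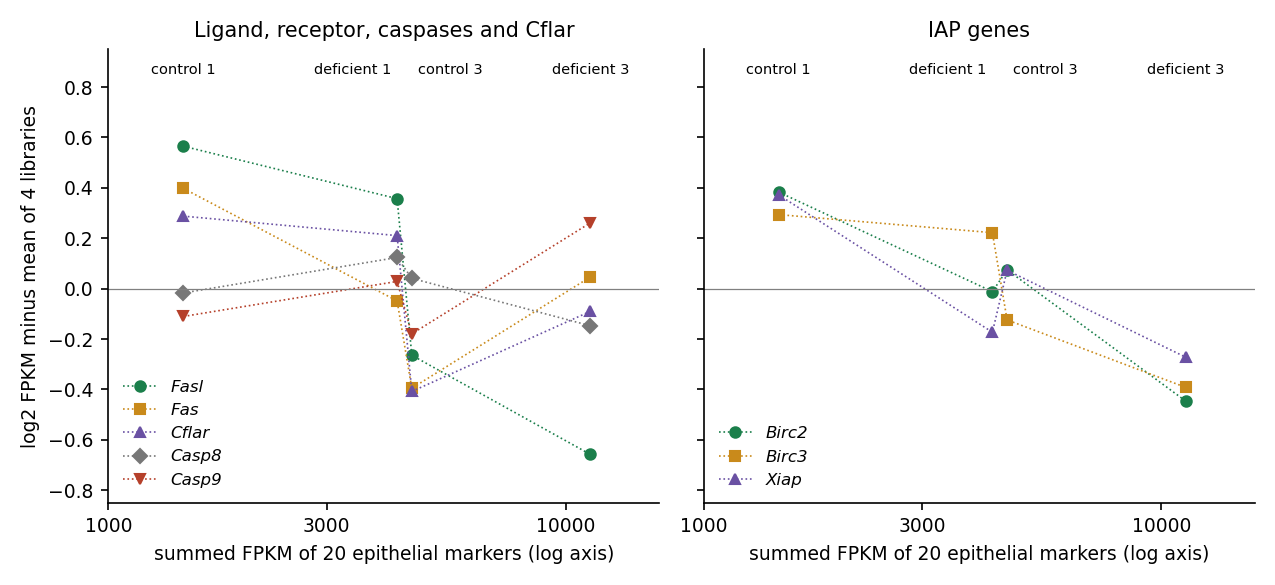
Log2 FPKM of each gene minus its mean over the 4 libraries, against the summed FPKM of 20 epithelial markers (log axis); 1 point per gene and library, with dotted lines joining the points of a gene. *Fasl*, *Birc3*, *Birc2* and *Xiap* are highest in control replicate 1 (sum 1458 FPKM) and lowest in replicate 3 labelled Kdm6b-deficient (sum 11301 FPKM), and *Casp9* is highest in the latter.

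When each library was scaled so that 5 T cell genes (*Cd3d*, *Cd3e*, *Cd3g*, *Cd247* and *Ptprc*) had the same geometric mean, the gap between the groups closed for both lower IAP genes, along with a shift of all genes. *Birc2* then had 46.9 and 45.7 FPKM in the control libraries and 42.8 and 47.8 FPKM in those with the Kdm6b-deficient label, and *Xiap* had 5.37 and 5.26 FPKM against 4.42 and 6.2 FPKM. Both now overlapped between groups, with log2 fold changes of −0.03 and −0.02. This scaling raised the median of all genes to 0.38, with 37.5% of genes higher and 2.35% lower without overlap, so the values are read relative to that median. Relative to it *Birc2* was at −0.42, *Xiap* at −0.40, *Fasl* at −0.26 and *Birc3* at −0.13, while *Fas* was at −0.02, *Casp8* at 0.01, *Cflar* at 0.13 and *Casp9* at 0.23. The signs of the fold changes themselves turned from negative to positive for *Fas* (0.36), *Fasl* (0.12), *Casp8* (0.40) and *Birc3* (0.25). Of the 8 genes 4 were then higher without overlap (*Casp8*, *Casp9*, *Birc3* and *Cflar*) and 0 lower, and 0 passed the test with limma.

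The shapes of the values over the 4 libraries were also compared, by the root mean square difference of centred log2(FPKM + 1). *Xiap* and *Birc2* were each other's nearest gene among the 8 (0.126), and so were *Fas* and *Cflar* (0.144). The nearest member to *Birc3* was *Birc2* (0.16), that to *Fasl* was *Birc3* (0.212), that to *Casp8* was *Birc3* (0.216) and that to *Casp9* was *Casp8* (0.217). Among 7784 genes with at least 5 FPKM in each library, the one nearest to *Fasl* was *Malt1*, which encodes a scaffold and protease of antigen receptor signalling (0.025), with 25.7 and 14.6 FPKM in the control libraries and 22.8 and 11.2 FPKM in the others. A predicted transcript without a symbol (0.032) and *Ccng2*, which encodes an atypical cyclin (0.0493), came next. The nearest to *Fas* were *Cdk5rap1* (0.0281), *Usp12*, which encodes a deubiquitinase (0.0418), and *Pacs1*, which encodes a trafficking adaptor (0.0446). With 4 libraries many genes take a similar shape, and nothing about shared function or control follows.

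The wider pathway was read from 7 further lists that hold 66 genes, of which 60 passed the filter; *Tnfsf12*, *Tnfsf15*, *Daxx*, *Casp12*, *Casp14* and *Birc7* did not. With limma and no block for the replicate number, 0 of the 60 had an adjusted p under 0.05 (8 with that block, described at the end). Without the block 4 had an unadjusted p under 0.05 (*Tnfrsf1b*, *Ltbr*, *Faf1* and *Endog*), beside 5.35% of all tested genes. The groups did not overlap for 24 (40.0%, against 37.0% of all tested genes), 10 higher and 14 lower, and the median log2 fold change was −0.05. After the T cell scaling the groups did not overlap for 18 higher and 1 lower of 59 tested genes (32.2%), against 39.9% of all genes in that scaling. The fold changes printed below after this scaling are not relative to its median of all genes, 0.38. They are to be read against that median, as for the members. Positive values rose too, to 1.22 for *Ltbr*, 1.16 for *Faf1*, 1.11 for *Endog* and 1.44 for *Gsdme*. *Casp1* and *Casp4* came to 1.34, *Casp6* to 1.21 and *Lmna* to 1.3. Of the 60 genes 12 were lowest in control replicate 1 and highest in replicate 3 labelled Kdm6b-deficient, as the epithelial sum was, against 22.1% of all tested genes. They were *Tnfrsf12a*, *Ltbr*, *Fadd*, *Casp1*, *Casp6*, *Cycs*, *Aifm1*, *Naip1*, *Naip2*, *Naip5*, *Lmna* and *Gsdme*, of which *Naip2* and *Naip5* are named for this count alone.

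Of the other death receptors 1 of 8 was higher and 4 of 8 were lower without overlap, where 18.4% and 18.6% of all tested genes were. *Tnfrsf1b*, the second TNF receptor, which lacks a death domain, had 139 and 94.1 FPKM in the control libraries and 81.5 and 61.9 FPKM in those with the Kdm6b-deficient label (log2 fold change −0.68, limma adjusted p = 0.755, and −0.26 after the T cell scaling). *Tnfrsf1a*, the TNF receptor with a death domain, had 49.3 and 43.7 FPKM against 42.4 and 32.7 FPKM (−0.31, and 0.11 after the T cell scaling). *Ltbr*, the lymphotoxin β receptor, which epithelial and stromal cells use, had 5.45 and 7.88 FPKM against 10.5 and 14.9 FPKM (0.84). *Tnfrsf10b*, the mouse receptor for TRAIL, had 7.33 and 3.77 FPKM against 4.97 and 5.69 FPKM (0.00). *Tnfrsf21* was at −0.56 and *Tnfrsf12a* at 0.45. *Tnfrsf10b*, which like *Fas* recruits FADD directly, thus had both libraries labelled Kdm6b-deficient inside the control range, as *Fas* had.

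Of the other ligands 5 were tested, 1 of which was higher and 0 lower without overlap, where 18.4% and 18.6% of all tested genes were. *Tnfsf10*, which encodes TRAIL, had 78.8 and 60.6 FPKM in the control libraries and 52.3 and 63.3 FPKM in the others (log2 fold change −0.26, and 0.16 after the T cell scaling). *Tnf* had 9.92 and 15.6 FPKM against 16 and 7.55 FPKM (−0.16, and 0.22 after the T cell scaling). *Lta* was at −0.18, and at −0.99 with a pseudocount of 0.1, with 0.07 FPKM in replicate 3 labelled Kdm6b-deficient. *Tnfsf14*, which encodes the ligand LIGHT, was at 0.39 and was the one with separate groups. 

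Among 17 adaptors and regulators of the death complex 13 had negative log2 fold changes, as had 5993 of the 12009 genes tested, and the median was −0.17. The groups did not overlap for 5 lower and 1 higher (35.3%), near the 37.0% of all tested genes. *Fadd*, the adaptor between *Fas* and the initiator caspase, had 7.72 and 13.8 FPKM in the control libraries and 12.9 and 15.1 FPKM in the others (0.39, and 0.01 to 0.78 with 1 library left out). *Ripk1*, the kinase that *Birc2* and *Birc3* proteins ubiquitinate, had 12.1 and 8.15 FPKM against 11.3 and 7.32 FPKM (−0.11, and 0.27 after the T cell scaling). *Tnfaip3*, which encodes the ubiquitin-editing enzyme A20, was abundant, with 473 and 375 FPKM against 349 and 253 FPKM (−0.50, limma adjusted p = 0.755, and −0.08 after the T cell scaling). *Faf1*, which encodes a *Fas*-associated factor, had 5.48 and 4.91 FPKM against 10.5 and 8.97 FPKM (0.79, limma adjusted p = 0.755). *Traf3* was at −0.44.

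Of the caspases other than *Casp8* and *Casp9*, 4 tested genes are reported here, and their groups did not overlap (37.0% of all tested genes did so), 3 higher and 1 lower, with *Casp6* counted from unrounded values; *Casp2*, the lower one, overlapped after the T cell scaling and *Casp4* after median-of-ratios scaling. *Casp2*, an initiator-type caspase outside the receptor route, was at −0.17 (0.24 after the T cell scaling). *Casp1*, an inflammatory caspase, had 16.4 and 36.4 FPKM in the control libraries and 41.4 and 55.2 FPKM in the others (0.94, limma adjusted p = 0.755, and 0.39 to 1.49 with 1 library left out), lowest and highest in the same libraries as the epithelial sum. *Casp4*, also inflammatory, had 9.68 and 3.59 FPKM against 16.3 and 9.75 FPKM (0.96, and 0.35 to 1.57 with 1 library left out), where the gap between groups was small beside the spread within them. It was highest in replicate 1 labelled Kdm6b-deficient, and the part of myeloid RNA in these caspase values was not tested. *Casp6*, named after its values were seen, had 23.1 and 41.8 FPKM against 41.8 and 71.9 FPKM (0.80, and 0.39 to 1.21 with 1 library left out), lowest and highest in the same libraries as the epithelial sum. Its groups were separate only beyond the printed digits of the middle values, so they touch at this precision, and they overlapped after the T cell scaling and after median-of-ratios scaling.

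On the mitochondrial side 2 of 8 genes were higher and 2 lower without overlap, against 18.4% and 18.6% of all tested genes. *Apaf1*, the scaffold that activates the *Casp9* protein, was at −0.15 (0.24 after the T cell scaling). *Cycs*, which encodes cytochrome c, had 51.1 and 81.8 FPKM in the control libraries and 76.6 and 97.4 FPKM in the others (0.41). *Diablo*, whose protein displaces IAPs from caspases, was at −0.17 (0.24 after the T cell scaling), and *Septin4*, a gene with an IAP-antagonist isoform, at −0.30 (0.11 after the T cell scaling). *Endog*, which encodes a mitochondrial nuclease, had 2.09 and 2.35 FPKM against 4.67 and 4.44 FPKM (0.79, limma adjusted p = 0.755), and *Aifm1*, which encodes a mitochondrial flavoprotein, was at 0.60.

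Of the other IAP family genes 0 of 6 had groups that did not overlap (37.0% of all tested genes had), and the median was 0.30. *Birc5*, which encodes survivin, a protein of dividing cells, had 153 and 216 FPKM in the control libraries and 180 and 184 FPKM in the others (0.01). *Birc6* was at −0.07 (0.32 after the T cell scaling). *Naip1* and *Naip6*, sensors of bacterial proteins, were at 0.63 and 0.39; they belong to a cluster of near-identical genes, so their separate values are uncertain. Among 12 caspase substrates 2 were higher and 2 lower without overlap (33.3%, near the 37.0% of all tested genes), with a median of 0.01. *Gsdme*, a gasdermin, had 1.37 and 5.05 FPKM in the control libraries and 4.02 and 12.3 FPKM in the others (1.11, and 0.41 to 1.82 with 1 library left out). *Lmna*, the A-type lamin, had 14.8 and 23.1 FPKM against 24.0 and 51.9 FPKM (0.90, and 0.35 to 1.44 with 1 library left out). Both were lowest and highest in the same libraries as the epithelial sum, whose part was not tested, while *Lmnb1* was at −0.46 (−0.04 after the T cell scaling, where its groups overlapped) and *Parp1* at −0.22 (0.20 after the T cell scaling).

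**Figure D4:**
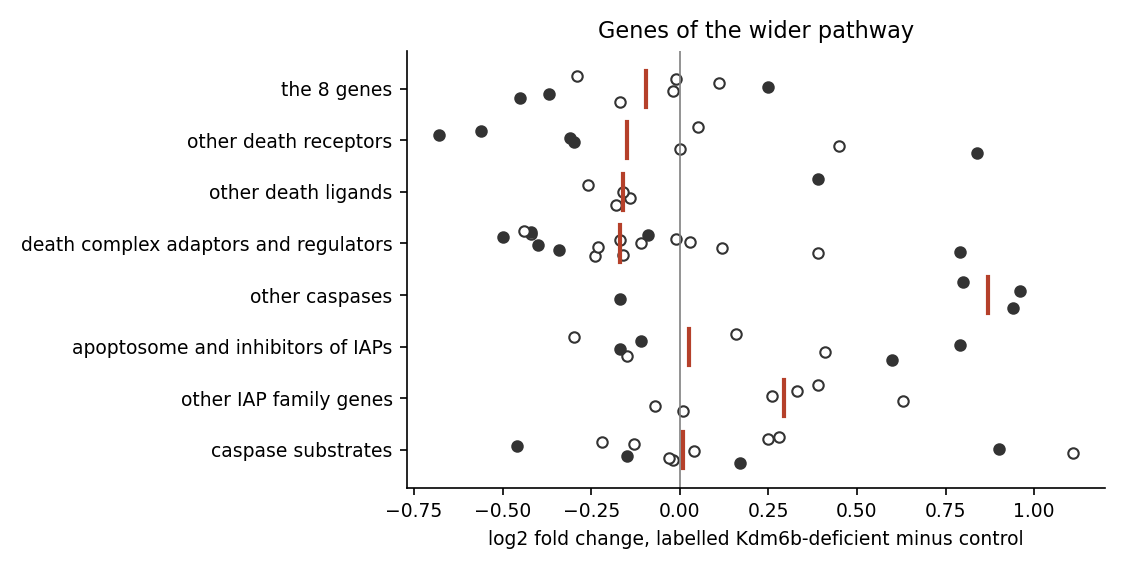
Log2 fold change (libraries labelled Kdm6b-deficient minus control) of the 8 genes and of 60 tested genes in 7 lists of the wider pathway, 1 point per gene. Filled points are genes whose groups do not overlap and the upright bar is the median, from −0.17 for the adaptors to 0.87 for the 4 other caspases. Without the replicate number as a block, no gene passed limma at an adjusted p under 0.05.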

How the data were processed

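RNA of sorted TCRβ+CD8αα+ IELs was sequenced from 4 pools of 3 mice. The authors mapped clean reads to mm10 (GRCm38.p5) with HISAT and Bowtie2 and quantified genes with RSEM; the submitters' processing notes name Bowtie2 2.2.5 and RSEM 1.2.8. The deposited values are FPKM per gene, which the authors had scaled to transcript length and mapped fragments; they list 19339 genes, 758 of them predicted transcripts, and 18467 identifiers matched a symbol in RefSeq GRCm38.p6. Which aligner fed RSEM and the gene annotation are not given in the sources used here. Read counts were not used, so depth was estimated from the steps between low FPKM values.

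The scale was log2(FPKM + 1), and a gene entered where 2 or more libraries reached 1 FPKM. A trended empirical Bayes fit in limma 3.58.1 under R 4.3.3 compared the 2 libraries labelled Kdm6b-deficient with the 2 control libraries, with Benjamini-Hochberg adjustment over 12009 genes. Nothing says which mice or days the pools came from beyond their genotype, so p-values measure the spread between these pools. Groups that do not overlap were counted without a test, since 2 against 2 libraries allow no exact permutation p below 0.333. On simulated data the model called 200 of 200 genes given a log2 change of 2, and 13 others among 11782 genes tested. The log2 fold changes of the 8 genes lay between −0.45 and 0.25, and the recovery of changes of that size was not tested.

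Promoter windows came from RefSeq GRCm38.p6 and primers from the study's supplement. The members and lists were chosen with earlier results of these data known. Named genes are all members, of each list the genes with the largest positive and the largest negative log2 fold changes, up to 2 of each sign, and genes named whatever their values (*Fadd*, *Ripk1*, *Apaf1*, *Cycs*, *Diablo*, *Birc5*, *Tnfrsf1a*, *Tnfrsf10b*, *Tnfsf10* and *Tnf* among them). Outside these rules, *Casp6* was added after its values were seen, and *Naip2* and *Naip5* were named only for the count given above. Some genes of the caspase list are not reported here and were left out of its counts. Alternatives were a pseudocount of 0.1, no filter, a filter of 5 FPKM, median-of-ratios scaling, scaling to 5 T cell genes, limma without a trend, a replicate block and leaving out each library. Tables were handled with pandas 2.3.3. Single-cell RNA-seq and chromatin data were not analysed here.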

Additional observations from a re-analysis of the deposited data

How the results depend on the processing

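With 2 libraries per group, limma called 0 of the 8 genes under each alternative, and their log2 fold changes kept their signs with a pseudocount of 0.1, without a filter, with a filter of 5 FPKM, with median-of-ratios scaling and without a trend. Under median-of-ratios scaling *Tnfrsf10b* and *Birc5* each came to −0.01. Scaling to T cell genes raised the median of the 8 genes to 0.31. As it moved the median of all genes to 0.38, small negative values turned positive by construction, those of *Fas* (0.36), *Fasl* (0.12), *Casp8* (0.40), *Birc3* (0.25), *Tnfrsf1a* (0.11), *Tnf* (0.22), *Tnfsf10* (0.16), *Ripk1* (0.27), *Casp2* (0.24), *Apaf1* (0.24), *Diablo* (0.24), *Septin4* (0.11), *Birc6* (0.32) and *Parp1* (0.20); relative to that median the members are given above. Over all genes it turned 2208 higher and 2230 lower without overlap into 4504 and 282.

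When the replicate number entered as a block, limma called 1019 of all genes, 8 of the pathway genes and 0 of the 8 members. Among named genes it called *Tnfrsf1b* (−0.68), *Tnfaip3* (−0.50), *Casp1* (0.94), *Casp4* (0.96), *Casp6* (0.80), *Aifm1* (0.60), *Lmna* (0.90) and *Gsdme* (1.11). *Birc2* had a limma adjusted p of 0.111 there, the low end of a range up to 1.0 over its alternatives. Same-numbered libraries deviated together (r = 0.56 across 12009 genes, which are not independent), but nothing says that a number marks a shared batch, so the libraries may share only a number.

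Leaving out 1 library at a time left 0 calls by limma over all genes, the members and the pathway; the lone library of a group is then assumed to vary like the other group. The number of members without overlap was 4 to 7 of 8 and of pathway genes 33 to 48 (56.9% to 81.4%), beside 57.5% to 78.7% of all genes, since smaller groups overlap less by construction. The median of the 8 genes ranged from −0.36 to 0.12. The log2 fold change ranged from −0.66 to −0.24 for *Birc2*, −0.50 to −0.25 for *Xiap*, −0.47 to 0.14 for *Birc3*, −0.80 to 0.21 for *Fasl*, −0.35 to 0.33 for *Fas*, −0.16 to 0.11 for *Casp8*, −0.22 to 0.44 for *Cflar* and 0.15 to 0.35 for *Casp9*. The range also spanned 0 for *Tnfrsf10b* (−0.40 to 0.41), *Tnfrsf12a* (−0.01 to 0.92), *Tnf* (−0.66 to 0.34), *Lta* (−1.22 to 0.86), *Ripk1* (−0.39 to 0.17), *Apaf1* (−0.30 to 0.01), *Septin4* (−0.61 to 0.01), *Birc5* (−0.24 to 0.25), *Birc6* (−0.34 to 0.19), *Naip1* (−0.22 to 1.48) and *Naip6* (−0.15 to 0.93), and for the log2 differences of the ratios of *Fasl* to *Fas* (−0.85 to 0.26) and of *Cflar* to *Casp8* (−0.23 to 0.52). Without changing sign, it moved by over 1.5 times at an end of the range for *Fadd* (0.01 to 0.78), *Cycs* (0.08 to 0.75), *Tnfsf14* (0.17 to 0.60), *Aifm1* (0.38 to 0.83), *Casp6* (0.39 to 1.21), *Traf3* (−0.74 to −0.15), *Tnfaip3* (−0.74 to −0.27), *Lmnb1* (−0.78 to −0.13), *Parp1* (−0.43 to −0.01), *Tnfsf10* (−0.45 to −0.07), *Tnfrsf1a* (−0.49 to −0.13), *Tnfrsf1b* (−0.96 to −0.40) and *Casp2* (−0.24 to −0.11), beside those given above. A pseudocount of 0.1 moved *Lta* to −0.99. The causes were not tested. The 95% intervals of the 8 genes, from 0.45 to either side for *Casp8* to 1.05 for *Fasl*, limit what 4 pools can show.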
